A study of Homo sapiens with 9 samples.

Results

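The carbonic anhydrases were examined in OVCAR5 cells, an established human ovarian cancer line, through 7 genes chosen by symbol: CA2, CA5B, CA8, CA9, CA11, CA12 and CA13. All 7 symbols were found among the 60649 gene identifiers of the deposited count table by matching Ensembl identifiers to GENCODE release 44. All 7 also passed the filter on low counts, along with 19674 genes in total, and each had at least 24 counts in every library. The question was which members of the family are transcribed in these cells and whether CA2 alone was lower in the libraries described as METTL3 knockdown.

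There were 9 libraries of messenger RNA in 3 groups of 3, labelled NC, SM2 and SM4. All came from cells that were transduced with lentivirus and kept under puromycin, and the series describes NC as the control and both SM groups as METTL3 knockdown. METTL3 is the catalytic subunit of the complex that places N6-methyladenosine (m6A) on RNA. The study describes its control cells as carrying a non-targeting short hairpin RNA and its knockdown cells as carrying 1 of 2 METTL3 hairpins, whereas the series text calls NC parental. The sources do not tie a hairpin to the names SM2 and SM4. They do not say either whether replicates were separate cultures, so p-values measure only the spread between these libraries, which may be technical. The cell line field names OVCAR5 throughout, whereas a source field gives a different OVCAR name to each SM4 library.

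The targeted gene went against the labels. METTL3 was at 36.25, 34.4 and 36.6 CPM (counts normalised for library size) in the libraries labelled NC, 37.1, 39.8 and 40.01 CPM in SM2, and 60.6, 57.5 and 62.4 CPM in SM4. It was called higher in SM4 than in NC by 0.75 on the log2 scale (adjusted p 2.21e-09) and higher in SM4 than in SM2 by 0.63 (adjusted p 7.46e-08), and SM2 was not called different from NC (0.12, adjusted p 0.12). METTL3 was thus lower in NC and SM2 than in SM4, where the labels would have it lowest in the SM groups. Which group was the control is in doubt: only with SM4 as the control would METTL3 be lower in both other groups. Names and directions here follow the labels, and rose or fell means higher or lower than in the group named second. Were the labels exchanged so that SM4 held the control cells, every difference between SM4 and another group would turn its sign when read as knockdown against control, and SM2 against NC would compare 2 knockdowns. No direction below can therefore be read as an effect of METTL3 knockdown. Library totals ran from 44103272 to 63693728 counts, so 1 CPM stood for 44.1 to 63.7 counts. Pairs of replicates correlated at 0.991 to 0.993 across genes, and SM2 replicate 3 stood farther from its group (chi-square per degree of freedom of 13.8 and 16.7) than any other pair did (4.21 to 6.04). The epithelial origin was visible in all 9 libraries: the 8 epithelial markers summed to between 11250 and 13150 CPM, led per length by KRT18, KRT8 and KRT19. Among 10 markers of blood, endothelial and fibroblast cells, 6 never exceeded 15 counts (HBB was at 0 throughout), but the list's sum was 32.8 to 35.6 CPM in NC, 39.4 to 43.7 CPM in SM2 and 45.2 to 50.1 CPM in SM4, through CD14 and PECAM1. That sum moves with the groups, and its part in the results on carbonic anhydrases was not tested.

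Carbonic anhydrases are zinc enzymes that interconvert carbon dioxide and water with bicarbonate and a proton, and so they link respiration, acid-base balance and ion transport. In tumour cells the family is best known through CA9 and CA12, membrane enzymes with an outward-facing catalytic domain that are induced by hypoxia in many tissues. CA2 and CA13 are soluble enzymes of the cytosol, and CA5B works in mitochondria. CA8 and CA11 are carbonic anhydrase-related proteins, which keep the fold but lack zinc-binding histidine and catalytic activity. CA8 is known to bind the inositol trisphosphate receptor, a calcium channel of the endoplasmic reticulum.

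The upstream sequences of CA9 and CA12 are shown because both genes are known as targets of hypoxia-inducible factors. These factors bind the core letters ACGTG or GCGTG, which were searched on both strands of the 250 bases before the RefSeq start site (GRCh38.p14). A match is in capitals, shown as CACGT or CACGC where it lies on the other strand.
CA9, chr9:35673678-35673927, plus strand: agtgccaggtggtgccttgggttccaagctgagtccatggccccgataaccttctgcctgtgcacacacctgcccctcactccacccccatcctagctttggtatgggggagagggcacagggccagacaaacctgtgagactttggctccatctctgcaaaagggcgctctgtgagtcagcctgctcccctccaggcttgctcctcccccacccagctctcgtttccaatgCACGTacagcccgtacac
CA12, chr15:63381847-63382096, minus strand: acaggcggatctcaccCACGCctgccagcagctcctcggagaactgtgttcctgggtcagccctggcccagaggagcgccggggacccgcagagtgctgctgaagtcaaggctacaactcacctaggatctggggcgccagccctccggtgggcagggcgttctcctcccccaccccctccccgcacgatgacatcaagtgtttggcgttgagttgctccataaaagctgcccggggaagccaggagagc

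CA9 held 1 match, whose first base is at -18 from the start site, and CA12 held 1, whose first base is at -234. Such a match is common: 43.2% of 35116 promoter windows of this length held at least 1. CA5B held 6 GCGTG letters on its own strand, and 5 or more matches were found in 1.36% of windows. The window of CA5B (chrX:15738020-15738269) lies before the RefSeq start site but inside the longer GENCODE span of the gene given below. A match describes letters, not binding. Promoters of 3 of the 7 members (CA5B, CA9 and CA12) were searched. Those of CA2, CA8, CA11 and CA13 were not searched and are only named.

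The series concerns m6A, which METTL3 places in a short consensus of which GGACT is the best known form. GGACT was counted in the reference transcript (MANE Select, GENCODE) of each member on the sense strand. CA2, CA9 and CA11 held 2 each, CA8 and CA13 held 3 each, and CA5B and CA12 held 5 each. Per kb this was 1.28 for CA2, 1.29 for CA9, 1.17 for CA11, 0.82 for CA12, 0.772 for CA13, 0.731 for CA5B and 0.523 for CA8, against a median of 0.924 over 19061 transcripts, of which 88.5% held at least 1. The sites of CA11 and the coding sites of CA12 are shown with 8 bases on each side and the consensus in capitals. These members had the largest rises against NC as labelled, described below. The sites of the other members, among them CA2 and CA8, and those of CA12 in its 3′ UTR are not shown. No methylation was measured in these libraries.
CA11 exon 1, chr19:48645755-48645759, minus strand, 5′ UTR: gggaactgGGACTccctgtgg
CA11 exon 2, chr19:48645445-48645449, minus strand, coding: gaccccgaGGACTggtggagc
CA12 exon 2, chr15:63375665-63375669, minus strand, coding: ttccaagtGGACTtattttgg
CA12 exon 9, chr15:63328106-63328110, minus strand, coding: ctgcggcaGGACTgagtctgg

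Levels between genes were compared as CPM per kilobase of annotated exon. CA2 was the most abundant member in every library, and the cytosolic pair of CA2 and CA13 stood above all others. In the libraries labelled NC the mean levels were 20.6 ± 1.12 CPM per kb for CA2, 6.70 ± 0.0877 for CA13, 2.07 ± 0.401 for CA11, 1.99 ± 0.171 for CA8, 0.638 ± 0.0654 for CA12, 0.418 ± 0.0716 for CA5B and 0.373 ± 0.0749 for CA9 (SD, n = 3). Neighbours in this order had separate ranges over libraries, except for CA11 with CA8 and CA5B with CA9. In SM2 the order was CA2 (16.1 ± 0.473), CA13 (8.09 ± 0.445), CA11 (3.29 ± 0.200), CA8 (1.68 ± 0.151), CA12 (1.20 ± 0.0672), CA9 (0.441 ± 0.087) and CA5B (0.392 ± 0.0296), with overlap between CA9 and CA5B alone. In SM4 it was CA2 (10.6 ± 0.487), CA13 (7.77 ± 0.223), CA11 (3.47 ± 0.123), CA8 (0.882 ± 0.133), CA12 (0.743 ± 0.0712), CA9 (0.390 ± 0.0845) and CA5B (0.384 ± 0.0418). There the ranges of CA8 and CA12 overlapped as well as those of CA9 and CA5B. The order of the upper members thus did not move between groups, while the distances between them did. In bulk libraries such as these, fewer cells that express a gene and less RNA per cell cannot be told apart.

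**Figure D1:**
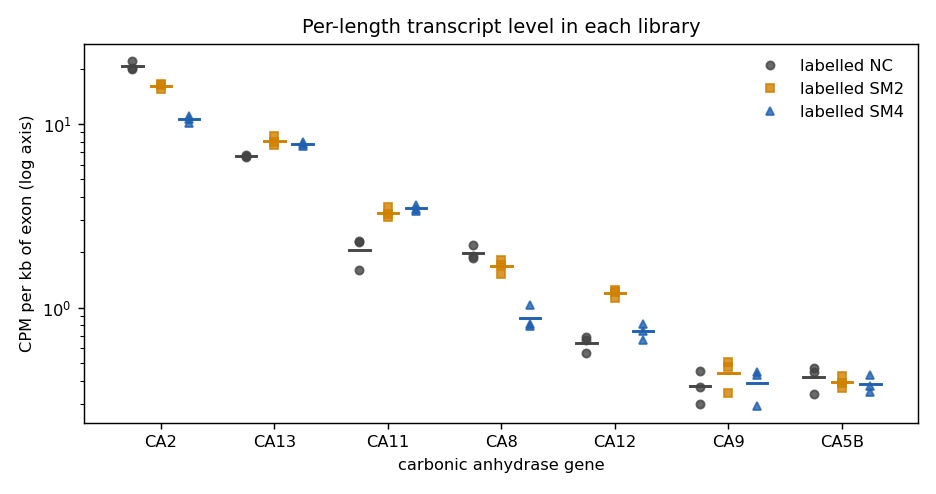
Transcript level of each carbonic anhydrase in CPM per kb of exon, on a log axis, with 1 point per library and a line at the mean of each group of 3. CA2 lies between 19.9 and 21.9 in NC but between 10.1 and 11.05 in SM4, whereas CA13 lies between 6.63 and 8.58 in all libraries.

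The 8 other catalogued family members were scarce. CA4 and CA10 had 0 counts in all 9 libraries, which at a floor of 3 counts allows up to 0.0471 to 0.068 CPM depending on the library, counting error alone considered. CA5A, CA6 and CA7 never exceeded 3 counts, and CA1 reached 6 in a single library. Only CA3 and CA14 of the 8 passed the filter. CA3, a cytosolic enzyme of muscle, was at 0.262 ± 0.0364 CPM in NC, 0.466 ± 0.119 in SM2 and 0.450 ± 0.118 in SM4. CA14, a membrane enzyme, was at 0.805 ± 0.251, 0.854 ± 0.252 and 0.629 ± 0.0384 CPM. Neither was called in any comparison (relative to NC, the adjusted p in SM2 and SM4 was 0.141 and 0.168 for CA3 and 0.88 and 0.472 for CA14).

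CA2 (ENSG00000104267.10, chromosome 8, 85463968 to 85481493, GRCh38, plus strand) was highest in the NC libraries, lower in SM2 and lowest in SM4, the group in which METTL3 was highest. CA2 was thus higher in NC and SM2, where METTL3 was lower than in SM4, whichever group was the control. It was at 40.3, 43.996 and 39.96 CPM in NC, 32.5, 31.2 and 33.1 CPM in SM2, and 21.4, 22.2 and 20.2 CPM in SM4. The 3 groups did not overlap anywhere, and the lowest NC library lay above the highest SM2 library as that group did above SM4. Against NC, SM2 differed by -0.36 on the log2 scale (SE 0.0591, adjusted p 0.000127). SM4 differed from NC by -0.96 (SE 0.0601, adjusted p 3e-10). These p-values come from the quasi-likelihood test of edgeR, adjusted by the Benjamini-Hochberg method over 19674 genes, as does every adjusted p here unless an exact test is named. On a linear scale SM2 stood at 0.779 and SM4 at 0.515 of the NC level. The direct comparison of SM4 with SM2 gave -0.60 (SE 0.0607, adjusted p 6.61e-07). Only the start of CA2 is overlapped by CA3-AS1 on the other strand, which reaches to 85464915, and no exon base is shared (0 of 2007). CA3-AS1 stayed at or under 1.31 CPM.

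CA2 was not alone. CA8 (ENSG00000178538.10, chromosome 8, 60185412 to 60281400, minus strand) was at 16.9, 14.8 and 14.4 CPM in NC, 14.0, 13.2 and 11.7 CPM in SM2, and 6.28, 7.97 and 6.13 CPM in SM4. Every SM4 library was below every other library, and the SM2 libraries were narrowly below those of NC. The fall in SM4 against NC was -1.17 on the log2 scale (SE 0.104, adjusted p 4.53e-08), which left 0.445 of the NC level. In SM4 against SM2 it was -0.93 (SE 0.105, adjusted p 2.95e-06). The change of -0.24 in SM2 against NC (SE 0.1, 95% interval -0.453 to -0.0336) did not pass the threshold (adjusted p 0.092). CA2 and CA8 lay on either side of the median of GGACT per kb given above, on only 2 and 3 sites. A link between GGACT counts and these changes was not tested.

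The other cytosolic enzyme moved the opposite way. CA13 (ENSG00000185015.8, chromosome 8, 85220587 to 85284073, plus strand) lies in the same cluster of chromosome 8 as CA2, with CA1 and CA3 between them. It was at 37.1, 37.3 and 38.03 CPM in NC, 48.01, 44.6 and 43.1 CPM in SM2, and 42.2, 43.5 and 44.7 CPM in SM4. All 6 libraries of the SM groups exceeded all 3 of NC. The rise was small, 0.27 in SM2 against NC (SE 0.0541, adjusted p 0.000857) and 0.21 in SM4 against NC (SE 0.0538, adjusted p 0.00609). SM4 and SM2 were not called different (-0.06, 95% interval -0.168 to 0.0549, adjusted p 0.561). An antisense transcript (ENSG00000258256) covers 260 of the 5597 exon bases of CA13, and it never exceeded 14 counts.

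CA11 (ENSG00000063180.9, chromosome 19, 48637946 to 48646187, minus strand), the other member without catalytic activity that was measured, rose in both comparisons with NC. The single values were 3.13, 4.51 and 4.44 CPM in NC, 6.09, 6.26 and 6.83 CPM in SM2, and 6.53, 6.71 and 7.003 CPM in SM4. NC replicate 1 was the lowest, and no NC library reached any library of the other groups. The log2 fold change was 0.66 in SM2 (SE 0.126, adjusted p 0.000613) and 0.73 in SM4 (SE 0.125, adjusted p 0.000175). Without NC replicate 1 these became 0.51 and 0.59, and both calls held. SM4 and SM2 were not called different (0.08, 95% interval -0.176 to 0.328). The catalytically inactive pair of CA8 and CA11 was thus called in opposite directions in SM4 against NC.

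CA12 (ENSG00000074410.14, chromosome 15, 63321378 to 63381846, minus strand), a membrane enzyme, rose in SM2 alone among the comparisons with NC. It was at 4.81, 4.63 and 3.95 CPM in NC, 8.78, 7.86 and 8.51 CPM in SM2, and 5.25, 4.68 and 5.68 CPM in SM4. The SM2 libraries stood above all 6 others, and SM4 overlapped NC. SM2 exceeded NC by 0.91 on the log2 scale (SE 0.113, adjusted p 4.65e-06), and SM4 stood at 0.22 over NC (SE 0.115, 95% interval -0.0182 to 0.462, adjusted p 0.196). Whether these differences from NC are unequal was tested directly, since NC drops out of SM4 against SM2: CA12 was lower in SM4 by -0.69 (SE 0.111, adjusted p 0.000172).

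CA9 and CA5B were called in no comparison. CA9 (ENSG00000107159.13, chromosome 9, 35673928 to 35681159, plus strand), the enzyme most used as a hypoxia marker, was at 0.593, 0.478 and 0.718 CPM in NC, 0.547, 0.811 and 0.755 CPM in SM2, and 0.691, 0.712 and 0.468 CPM in SM4. These values rest on 24 to 45 counts per library, the groups overlapped throughout, and the 95% intervals were wide, from -0.392 to 0.871 in SM2 and from -0.558 to 0.698 in SM4 on the log2 scale. Of the 1598 exon bases of CA9, 571 (35.7%) are also exon of ARHGEF39 on the other strand, a gene at 48.9 to 54.9 CPM, and the sources do not say whether counting used strand. CA5B (ENSG00000169239.13, chromosome X, 15688830 to 15788411, plus strand), the mitochondrial enzyme, was at 4.01, 3.81 and 2.87 CPM in NC, 3.33, 3.10 and 3.60 CPM in SM2, and 3.17, 2.98 and 3.67 CPM in SM4. The 95% interval was -0.398 to 0.228 in SM2 and -0.43 to 0.189 in SM4. CA5B has a related pseudogene next to it, CA5BP1, which was at 3.38 to 4.47 CPM and shares 29 exon bases with it, so how reads were split between them is uncertain.

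**Figure D2:**
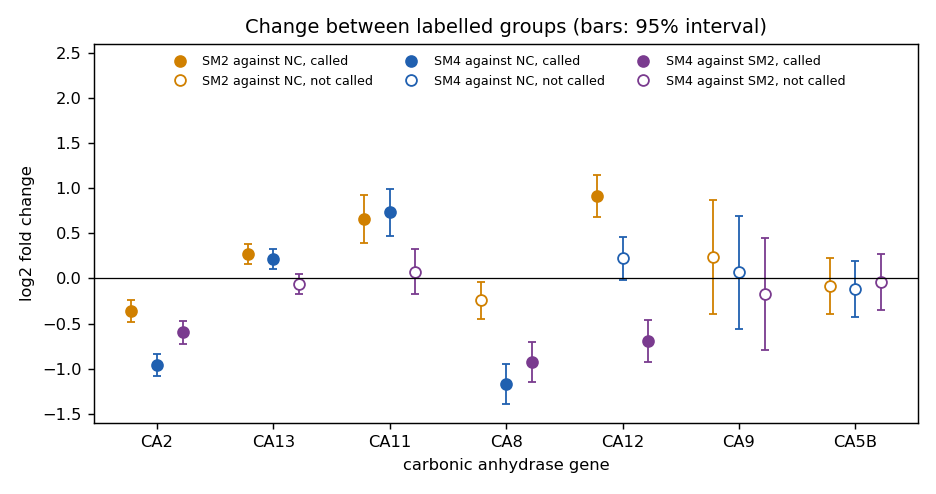
Log2 fold change of each carbonic anhydrase in the 3 comparisons, with bars for the 95% interval and filled points for adjusted p below 0.05. CA2 and CA8 lie lowest in SM4 against NC (-0.96 and -1.17), CA11 and CA13 lie above 0 in both comparisons with NC, and CA12 reaches 0.91 in SM2 against NC only.

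In counts over the 7 members, SM2 against NC called 3 higher (CA11, CA12, CA13) and 1 lower (CA2), where 22.3% of all genes tested were called, 12.0% higher and 10.3% lower. SM4 against NC called 2 higher (CA11, CA13) and 2 lower (CA2, CA8), where 21.2% of all genes were called, 11.0% higher and 10.2% lower. SM4 against SM2 called 3 lower (CA2, CA8, CA12) and 0 higher; 12.8% of all genes were called there, 6.76% lower and 6.04% higher. The count of 0 higher was also 0 at an unadjusted p under 0.05 in edgeR and 0 in DESeq2, which called 3 members lower. Libraries did not overlap for 5, 4 and 3 members in these comparisons, against 35.2%, 38.4% and 28.3% of all genes tested. The median log2 fold change over the members was 0.24, 0.07 and -0.17, and it was between -0.0037 and -0.000216 over all genes tested. Both comparisons with NC share its 3 libraries.

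Whether CA2 differed from the other members in its pattern was asked through the log2 ratio of CA2 counts to those of each other member, which needs no library scaling. An exact permutation test over the 3 groups of 3 was made for each of 6 ratios (smallest possible p 0.00357), with Benjamini-Hochberg adjustment over the 6. The ratio to CA13 fell from 0.14 ± 0.0869 in NC to -0.49 ± 0.0939 in SM2 and -1.03 ± 0.0971 in SM4 (SD, n = 3; exact adjusted p 0.0107). In counts, CA2 went from 1.1 times CA13 in NC to 0.489 times in SM4. The ratio to CA11 fell from 3.38 ± 0.272 to 2.34 ± 0.0712 and 1.66 ± 0.109 (exact adjusted p 0.0107), or from 10.4 times in NC to 3.15 times in SM4. For CA12 and CA5B the exact adjusted p was 0.0257 and 0.0143, and for CA9 it was 0.0257, a result lost when any of 6 of the 9 libraries was left out (adjusted p 0.0514 to 0.103: NC replicates 1, 2 and 3, SM2 replicate 3, SM4 replicates 1 and 2).

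The ratio of CA2 to CA8 was the exception. It was 1.43 ± 0.162 in NC, 1.32 ± 0.156 in SM2 and 1.66 ± 0.159 in SM4 (SD, n = 3; exact permutation p 0.107, adjusted p 0.107) and the ranges of all 3 groups overlapped. A difference between CA2 and CA8 was thus not detected. CA2 differed from each of the 5 others, though for CA9 this held in only 3 of 9 fits that left out a library. Over the 9 libraries the log2 CPM of CA2 and CA8 correlated at a Pearson r of 0.951, given as a description of libraries that fall into 3 groups.

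**Figure D3:**
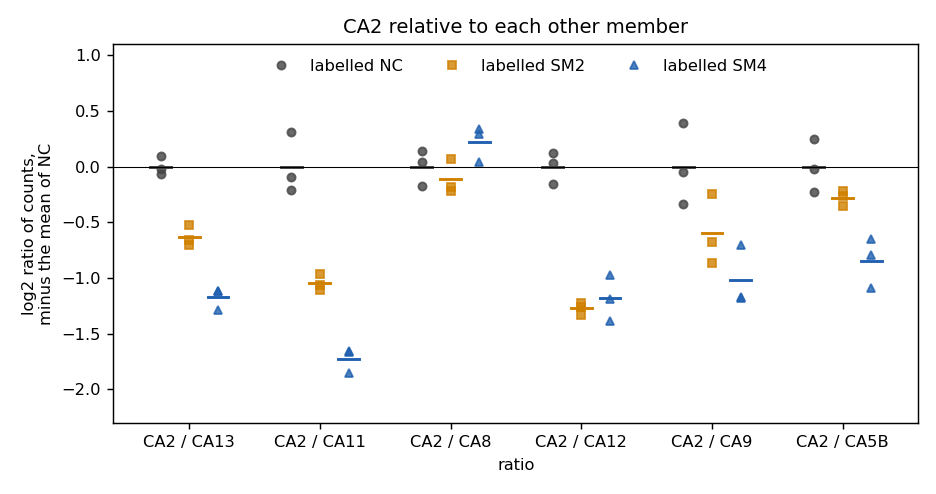
Log2 ratio of CA2 counts to those of each other member in the 9 libraries, shifted so that the mean of NC is 0, with lines at group means. The ratio to CA11 is 1.72 lower in SM4 than in NC and that to CA13 1.17 lower, while the mean ratio to CA8 is 0.22 higher in SM4.

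Per length, both the sum of the family's transcripts and its makeup differed between groups. The sum over all 15 genes was 33.2 ± 1.25 CPM per kb in NC, 31.6 ± 0.532 in SM2 and 24.7 ± 0.502 in SM4 (SD, n = 3). CA2 made up 61.2% to 63.3% of that sum in NC, 50.1% to 51.9% in SM2 and 41.4% to 43.9% in SM4. CA13 made up between 19.2% and 20.9% in NC and between 30.8% and 32.8% in SM4, and CA11 between 4.95% and 7.01% in NC and between 13.7% and 14.8% in SM4. CA12 was at most 3.91% and CA9 and CA5B at most 1.78% of the sum in any library.

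**Figure D4:**
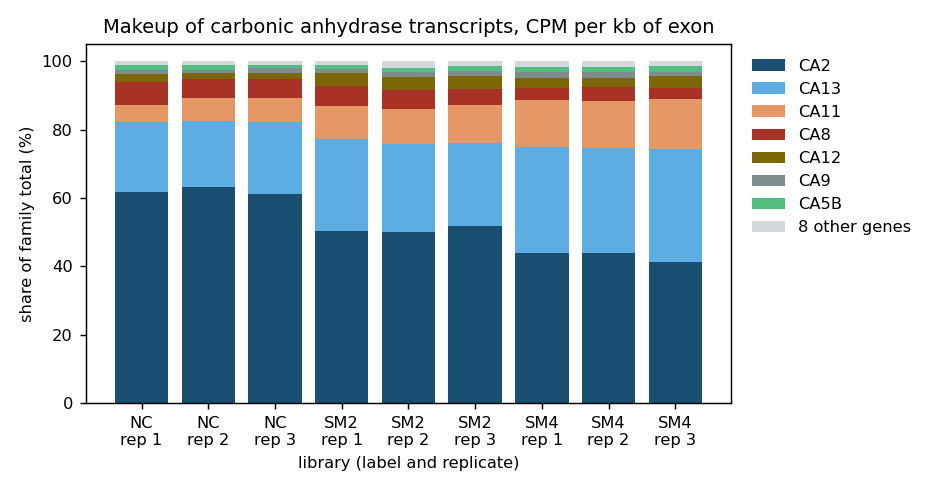
Share of each carbonic anhydrase in the family's summed CPM per kb of exon, as stacked bars for each of the 9 libraries. CA2 fills 61.2% to 63.3% of the bars labelled NC and 41.4% to 43.9% of those labelled SM4, and CA13 and CA11 take the larger shares there.

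The hypoxia response genes around CA9 and CA12 were read from a list of 17, all of them tested. In SM2 against NC 3 were called higher and 5 lower (22.3% of all genes called), and in SM4 against NC 0 higher and 5 lower (21.2%). The list's median log2 fold change was -0.0391 and -0.0856. LDHA, which makes lactate from pyruvate and was the most abundant per length, fell from 2577 ± 26 CPM in NC to 2294 ± 46.1 in SM2 (-0.17, adjusted p 0.00143) and 1834 ± 49.8 in SM4 (-0.49, adjusted p 2.31e-09). PGK1, a glycolytic kinase, fell in SM4 against NC (-0.12, adjusted p 0.0363), and SLC2A1, a glucose carrier, in SM2 against NC (-0.17, adjusted p 0.00247). The other genes called in SM4, named after their values were seen, were ANGPTL4 (-0.70), EGLN3 (-0.48) and P4HA1 (-0.34), all lower. The count of 0 higher in SM4 was also 0 at an unadjusted p under 0.05 in edgeR and 0 in DESeq2. NDRG1 (0.51), PFKFB4 (0.42) and INSIG2 (0.16) were those called higher in SM2. In SM4 against SM2 5 were lower and 1 higher (12.8% of all genes called), a count of 6 that became 3 without SM4 replicate 1 or 2.

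Bicarbonate and protons made by carbonic anhydrases are moved by dedicated transporters, and 18 of 22 listed genes of this kind were tested. In SM2 against NC 4 rose and 3 fell (22.3% of all genes called), a count of 7 that became 4 without NC replicate 3. In SM4 against NC 4 rose and 2 fell (21.2%). The most abundant per length were BSG, a chaperone of lactate carriers, SLC16A3, a lactate exporter, and SLC4A2, a chloride-bicarbonate exchanger. BSG was not called (0.08 and 0.10), SLC16A3 fell in SM4 against NC (-0.21, adjusted p 0.00139), and SLC4A2 in SM2 against NC (-0.14, adjusted p 0.0177). Of those named after their values were seen, SLC4A4, a sodium-bicarbonate cotransporter, rose by 1.11 (adjusted p 0.00933) and 0.96 (adjusted p 0.0235) in SM2 and SM4, respectively, from a low NC level of 0.456 ± 0.132 CPM. SLC4A3 rose by 0.59 and 0.70, and SLC4A11 by 0.51 and 0.48. SLC9A2, a sodium-proton exchanger, was lower by -0.42 in SM2 and -0.68 in SM4, and it was the 1 gene of the list called in SM4 against SM2 (-0.27, adjusted p 0.0318). That last call was lost in each fit without SM2 replicate 2 or any SM4 replicate. SLC9A3 (0.41) and SLC16A1 (-0.16) were also called in SM2, and SLC4A5 (1.19) in SM4. The list's median log2 fold change was 0.0244 for SM2 and 0.0529 for SM4, each relative to NC.

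Genes whose log2 CPM followed CA2 most closely over the 9 libraries were sought among 14411 other genes of at least 1 CPM on average. They were NUMBL (Pearson r 0.996), LDHA (0.993), LIMA1 (0.992), VTI1B (0.992) and LOXL2 (0.99). LOXL2, an enzyme that crosslinks collagen, went from 70.5 ± 2.95 CPM in NC to 48.2 ± 0.258 in SM2 and 18.9 ± 0.925 in SM4, a steeper course than that of CA2. LIMA1, an actin-binding protein, went from 232.7 ± 7.71 to 187.1 ± 7.13 and 140.9 ± 4.30 CPM. NUMBL was at 19.6 ± 1.29, 16.6 ± 0.469 and 12.3 ± 0.191 CPM. For CA13 the closest were ZNF517 (0.982), PSIP1 (0.978), PANX2 (0.977), ITPRID2 (0.974) and ATG13 (0.973). All 5 were highest in SM2 and lowest in NC, as CA13 was; ITPRID2 for example was at 895.8 ± 21.6, 1223 ± 75.3 and 1133 ± 9.82 CPM. These likenesses describe libraries in 3 groups and carry no test. Genes chosen for their likeness to CA2 or CA13 share its order of groups through that choice.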

How the data were processed

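Messenger RNA was sequenced in 9 libraries of OVCAR5 cells. The authors deposited raw counts per gene, without normalization. Per the study's methods, reads were checked with FastQC, aligned to hg38 with hisat2 and counted with Subread; the submitters' processing notes also name fastp and featureCounts. Versions, annotation and strand setting are not given in the sources used here, and labels and methods name different library kits and read layouts. Library totals of 44103272 to 63693728 counts set the precision. Identifiers were matched to GENCODE v44 (60507 of 60649), and 0 columns were unused.

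Groups came from library titles. Genes were filtered with filterByExpr (19674 kept), scaled by TMM and tested in edgeR 4.0.16 (R 4.3.3) with the quasi-likelihood F test on all 9 libraries, group as the sole term, and called at an adjusted p below 0.05. SEs are the log2 fold change over the root of F. The study used DESeq2, run here (1.42.0) as an alternative, beside other scalings and filters, fits on the 6 libraries compared, a replicate block and fits leaving out each library. CPM use the filtered library sizes, and per-length levels the union of annotated exons. Ratios were tested by exact permutation in scipy 1.17.1. The edgeR step was tested on simulated data. Named genes were the members, METTL3, the 8 other family genes, the 3 most abundant tested genes per length of each list, genes overlapping a member, and the 5 closest to CA2 and to CA13. Members and lists were chosen with earlier results of these data known.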

Additional observations from a re-analysis of the deposited data

Results flagged for a closer look

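Taking NC as the control, as labelled, the change of 3 members against NC differed between SM2 and SM4, by the direct test of SM4 against SM2 in edgeR with Benjamini-Hochberg adjustment. CA2 was lower in SM4 by -0.60 (SE 0.0607, adjusted p 6.61e-07), CA8 by -0.93 (SE 0.105, adjusted p 2.95e-06) and CA12 by -0.69 (SE 0.111, adjusted p 0.000172), each with all 3 SM4 libraries below all 3 SM2 libraries. CA2 and CA8 were lowest in SM4, whereas CA12 was above NC in SM2 and overlapped it in SM4. METTL3 was higher in SM4 than in SM2 by 0.63 (adjusted p 7.46e-08), so the control is in doubt: with SM4 as the control these values would be a comparison of knockdown with control with the sign turned, not a difference between 2 knockdowns. Groups of 3 libraries are too small for the test of single outlying libraries.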

How the results depend on the processing

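Of 586 values recomputed for 46 results, 562 kept their direction and their side of the threshold or stayed within the limits set for counts and levels. The number of members called was the same in each comparison under all 16 alternatives: 4 for SM2 and 4 for SM4 relative to NC, and 3 between the SM groups. In that order, CA2 lay between -0.39 and -0.32, between -0.99 and -0.91 and between -0.63 and -0.56. Under a replicate block (log2 fold changes of CA2 of -0.36, -0.96 and -0.60) no member changed its call. Same-numbered libraries did not deviate together across all genes (correlations of -0.053 to 0.0453 over 9 pairs). This gave no sign that the numbers pair the samples, but a batch that affects few genes would not show in it. The block called 4693, 4484 and 2815 genes against 4389, 4173 and 2518 without it. Without single libraries the log2 fold change of CA5B ranged from -0.22 to 0.0037 in SM2 against NC and from -0.12 to 0.028 in SM4 against SM2, and that of CA9 from -0.072 to 0.23 in SM4 against NC. The adjusted p of the CA2 to CA9 ratio ranged from 0.0257 to 0.103 in such fits. In the same fits, counts of transporters called ranged from 4 to 8 in SM2 against NC, from 4 to 9 in SM4 against NC and from 0 to 1 in SM4 against SM2, and counts of hypoxia genes from 3 to 7 in SM4 against SM2. Over the other alternatives the transporter counts were 6 to 9 (9 under the replicate block), 4 to 9 and 0 to 1, with 0 in the fit on the 6 libraries compared. With the length of the longest transcript in place of the exon union, the mean level was 20.3 CPM per kb for CA2, 10.8 for CA13, 2.04 for CA8 and 0.496 for CA5B; the last then exceeded CA9. CA9 was removed by the filter on a mean of 1 CPM. The cause of these shifts was not tested. Among the 7 members depth was lowest for CA9, with at most 45 counts per library, and CA3 outside them had at most 37.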
